A study of Nicotiana tabacum with 9 samples.

Results

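The genes described here are those of tobacco (Nicotiana tabacum) whose deposited description names an enzyme or domain of starch synthesis or starch breakdown: starch synthase, glucose-1-phosphate adenylyltransferase or ADP-glucose pyrophosphorylase, the branching enzyme, alpha-amylase, glycoside hydrolase family 14 (the beta-amylase family), isoamylase, or alpha-glucan phosphorylase. They number 84 of the 69500 genes in the table. The study holds 9 leaf RNA-seq libraries in 3 groups of 3, labelled KY, Y and K326. K326 is a flue-cured tobacco cultivar, and the labels give Y and KY only as genotypes, with no allele, treatment, plant age, harvest time or pedigree. The title of the series places the study in leaf yellowing. Nothing in the labels says that replicates came from separate plants, so the p-values reflect variation among libraries that may be technical.

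Leaf starch is made in the chloroplast by day and broken down at night. ADP-glucose pyrophosphorylase makes the sugar nucleotide that feeds the pathway, starch synthases extend the glucan chains with it, and branching enzymes place the branches. In breakdown, beta-amylases cut maltose from chain ends and, in Arabidopsis leaves, carry most of the flux, while alpha-amylases cut inside chains and phosphorylases release glucose phosphate. Starch of flue-cured leaves is turned into sugars while the leaves yellow in the curing barn.

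By class, the 84 genes comprised 10 for ADP-glucose pyrophosphorylase, 16 for starch synthase, 27 with an alpha-amylase entry, 24 for beta-amylase and 7 for phosphorylase. No gene matched the branching-enzyme wording without a hyphen or the isoamylase wording. Genes described as pullulanase-type alpha-1,6-glucosidases match none of the wordings and are counted below with the neighbouring genes. The alpha-amylase entry is the least uniform. Of its 27 genes, 8 carry the C-terminal beta-sheet entry of plant alpha-amylases, 7 carry the C-terminal all-beta domain, and 12 carry the trypsin/alpha-amylase inhibitor helical domain, a fold of enzyme inhibitors, lipid transfer proteins and seed storage proteins and not of starch enzymes. Among the 7 with the all-beta domain, 3 are described as the glucan-branching enzyme with a hyphen, and these are the only such genes in the table. They are called branching-enzyme genes below.

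The deposited expression signal carries no named unit, and whether it is per transcript length is not stated, so levels are compared between libraries of a gene and not between genes as amounts of RNA. Summed over all genes it ran from 551496 to 603165 per library, and read depth is unknown. Green-leaf genes (266 for light-harvesting, photosystem and small Rubisco subunits) made up 26.55% to 35.53% of the signal of a library, so the defining genes of the labelled tissue were present. KY replicate 1 stood apart. It correlated with K326 replicate 3 at r = 0.954 and with KY replicates 2 and 3 at r = 0.899 and 0.94 (Pearson, log2(signal + 1), across genes, which are not independent replicates). Its summed signal of 269 histone and cyclin genes, a list for dividing cells, was 3283, against 1337 and 1441 in the other KY libraries, 1437 to 2048 in Y and 2469 to 4548 in K326. K326 replicate 3 correlated with K326 replicates 1 and 2 at r = 0.952 and 0.947, and with KY replicates 2 and 3 at r = 0.897 and 0.931. Whether the labels of KY replicate 1 and K326 replicate 3 are right cannot be told from the files, so all KY and K326 values hold for the libraries as labelled. Calls that depend on KY replicate 1 are therefore given with and without it.

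Of the 84 genes, 20 were listed at 0 in all 9 libraries, 37 were above 0 but had a mean below 1, and 27 passed the minimum mean of 1 and were tested. The highest mean that missed the minimum was 0.918 and the lowest that met it was 1.063. Those tested were 4 of 10 ADP-glucose pyrophosphorylase genes, 5 of 16 starch synthase genes, 5 of 27 with an alpha-amylase entry, 8 of 24 beta-amylase genes and 5 of 7 phosphorylase genes. Of the 12 inhibitor-domain genes, 9 were at 0 throughout and 1 was tested. Differences are in log2(signal + 1), which understates changes of low genes.

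None of the 27 genes passed the threshold in any of the 3 comparisons (limma, Benjamini-Hochberg adjusted p below 0.05 over 16348 genes). Over all tested genes the called share was 0.789% for KY minus K326 (0.232% above and 0.557% below 0), 1.3% for KY minus Y (0.483% and 0.814%) and 1.99% for Y minus K326 (0.777% and 1.21%), so 0 calls among 27 genes lies close to the background. The lowest adjusted p of the 27 genes was 0.14 for KY minus K326, 0.0823 for KY minus Y and 0.272 for Y minus K326.

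At an unadjusted p below 0.05 there were 2 genes above and 5 below 0 for KY minus K326, where all tested genes gave 2.28% and 9.13%. For KY minus Y there were 1 above and 5 below, beside 4.24% and 8.96%. For Y minus K326 there were 1 above and 1 below, beside 4.32% and 8.18%. Counted by groups that do not overlap, whatever the p, 1 gene was higher and 7 were lower in KY than in K326 (all tested genes: 3.21% and 12.4%), 1 was higher and 5 were lower in KY than in Y (5.39% and 11.2%), and 3 were higher and 2 lower in Y than in K326 (7.41% and 14.7%). Genes that met both conditions numbered 1 and 5 for KY minus K326 (1.8% and 7.25%), 1 and 5 for KY minus Y (3.31% and 7.54%), and 1 and 1 for Y minus K326 (3.88% and 7.4%). The median difference of the 27 genes was -0.06 for KY minus K326, -0.02 for KY minus Y and -0.06 for Y minus K326, beside -0.14, -0.05 and -0.08 over all tested genes. The median SE of a difference was 0.22 for these genes and 0.24 over all genes. KY and Y were both set against the same K326 libraries, so their differences share those values.

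**Figure D1:**
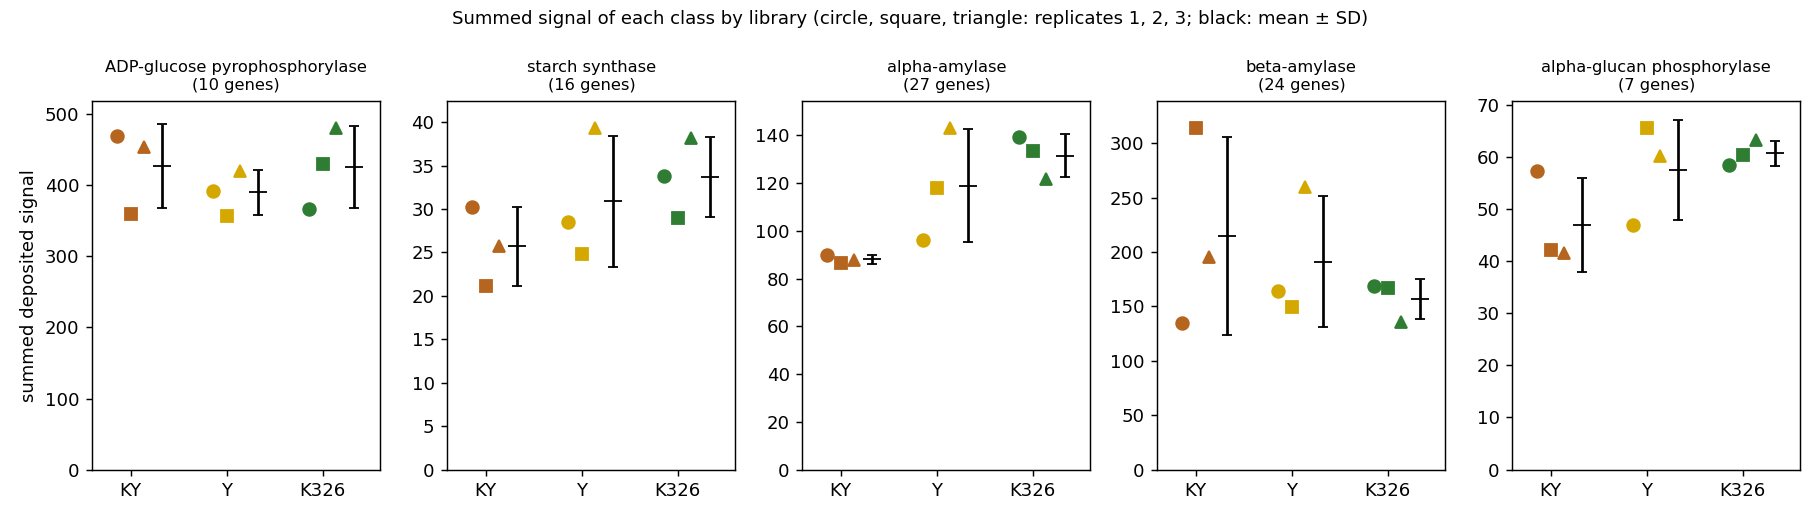
Summed deposited signal of the genes of each class (y axis, from 0) in each library of KY, Y and K326 (x axis), with the mean ± SD of 3 libraries in black; the alpha-amylase panel includes the inhibitor-domain and branching-enzyme genes. The alpha-amylase sums of KY lie at 86.5 to 90.0, below all libraries of Y and K326, while the beta-amylase sums of KY spread between 134.6 and 314.1.

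Tobacco is an allotetraploid with near-identical copies of many genes, and reads can be divided between copies in different ways, so single-copy values are uncertain. The sum over a class is given beside them, as a description with no test. The summed signal for ADP-glucose pyrophosphorylase was 427 ± 59.0 in KY, 390.0 ± 31.8 in Y and 425 ± 57.3 in K326 (SD, n = 3 each), with overlapping groups. Starch synthase sums were 25.7 ± 4.53 in KY, 30.9 ± 7.54 in Y and 33.6 ± 4.61 in K326. Phosphorylase sums were 46.9 ± 8.97 in KY, 57.5 ± 9.57 in Y and 60.6 ± 2.38 in K326. As deposited, all 3 KY libraries were below all 3 K326 libraries in the phosphorylase sum. KY replicate 1, at 57.3, was only just below the lowest K326 library, at 58.5. Alpha-amylase sums were 88.0 ± 1.80 in KY, 119 ± 23.6 in Y and 131 ± 9.05 in K326, and without the inhibitor-domain genes they were 83.97 ± 1.33 in KY, 113 ± 23.8 in Y and 126 ± 8.88 in K326. The beta-sheet genes summed to 54.4 ± 3.57 in KY, 81.8 ± 20.1 in Y and 93.7 ± 8.27 in K326, mostly from 1 gene, Nitab4.5_0003280g0040. The all-beta genes, which include the branching-enzyme genes, summed to 29.6 ± 2.88 in KY, 31.4 ± 4.54 in Y and 31.8 ± 0.64 in K326. Beta-amylase sums were 215 ± 91.3 in KY, 191 ± 60.3 in Y and 157 ± 18.5 in K326. In bulk leaf RNA, fewer cells of a type and less RNA per cell cannot be told apart.

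The genes of largest signal at the starch-forming end of the pathway showed no separation of the materials. ADP-glucose pyrophosphorylase gene Nitab4.5_0007468g0020 had signals of 174.3, 124.9 and 157.7 in KY, 136.9, 125.5 and 162.8 in Y, and 141.1, 162.2 and 170.1 in K326. The ranges of the 3 materials overlap. Its difference was -0.06 for KY minus K326 (95% interval -0.45 to 0.33, limma adjusted p = 0.905) and -0.16 for Y minus K326 (-0.54 to 0.23, limma adjusted p = 0.745). Both intervals leave out a change of a full log2 unit in either direction. Gene Nitab4.5_0000630g0120 had signals of 146.0, 127.6 and 160.5 in KY, 123.0, 102.3 and 139.0 in Y, and 113.0, 139.0 and 148.2 in K326. Again the materials overlap, with a difference of 0.12 for KY minus K326 (95% interval -0.27 to 0.51, limma adjusted p = 0.81) and -0.14 for Y minus K326 (-0.53 to 0.25, limma adjusted p = 0.783). A gene of similar range, Nitab4.5_0000968g0050, had means of 128 in KY, 124 in Y and 131 in K326.

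The fourth tested gene of this enzyme had a far smaller signal. Nitab4.5_0000017g0230 had 0.57, 0.20 and 0.48 in KY, 1.07, 2.07 and 0.51 in Y, and 1.48, 1.72 and 1.85 in K326. All KY libraries lay below all K326 libraries, and Y spanned the K326 range and reached into that of KY. The difference for KY minus K326 was -0.93 (SE 0.27) with an unadjusted p = 0.00719 and a limma adjusted p = 0.238, so it did not pass. The gene's mean over the 9 libraries was 1.106, with means of 0.42 in KY, 1.22 in Y and 1.68 in K326. Without K326 it would have missed the minimum of 1, so its entry into the test depended on the group where it is high. The class also holds 5 genes that carry the pyrophosphorylase conserved site without the adenylyltransferase entry. None of these was tested, and together they summed to 1.63 ± 0.91 in KY, 1.25 ± 0.05 in Y and 1.56 ± 0.28 in K326.

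Among starch synthases, which add glucose to the growing chains, the 4 tested genes with the ADP-glucose type entry and 1 with the catalytic domain alone gave no call. Nitab4.5_0000564g0020, with the largest signal of the class, had 19.78, 13.81 and 18.23 in KY, 19.98, 18.08 and 24.54 in Y, and 24.7, 22.3 and 23.6 in K326. The KY libraries were all below the K326 libraries, with a difference of -0.44 (SE 0.18, unadjusted p = 0.0368, limma adjusted p = 0.406). Nitab4.5_0000807g0080 had 3.75, 3.42 and 2.36 in KY, 3.08, 1.63 and 3.92 in Y, and 2.21, 2.63 and 2.82 in K326, with overlap throughout. Nitab4.5_0000170g0160 averaged 1.82 ± 0.21 in KY, 1.87 ± 0.37 in Y and 1.89 ± 0.09 in K326, and Nitab4.5_0007005g0040 averaged 1.92 ± 1.12 in KY, 1.59 ± 0.56 in Y and 1.88 ± 0.63 in K326 (SD, n = 3 each). Nitab4.5_0005393g0030 showed a pattern by library and not by material. It was listed at 0 in Y replicates 1 and 2 and K326 replicates 1 and 2, at 2.96 in Y replicate 3 and 4.65 in K326 replicate 3, and at 0.53, 0.42 and 1.01 in KY. Its intervals were the widest of the 27 genes, from -1.80 to 1.55 for KY minus K326.

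**Figure D2:**
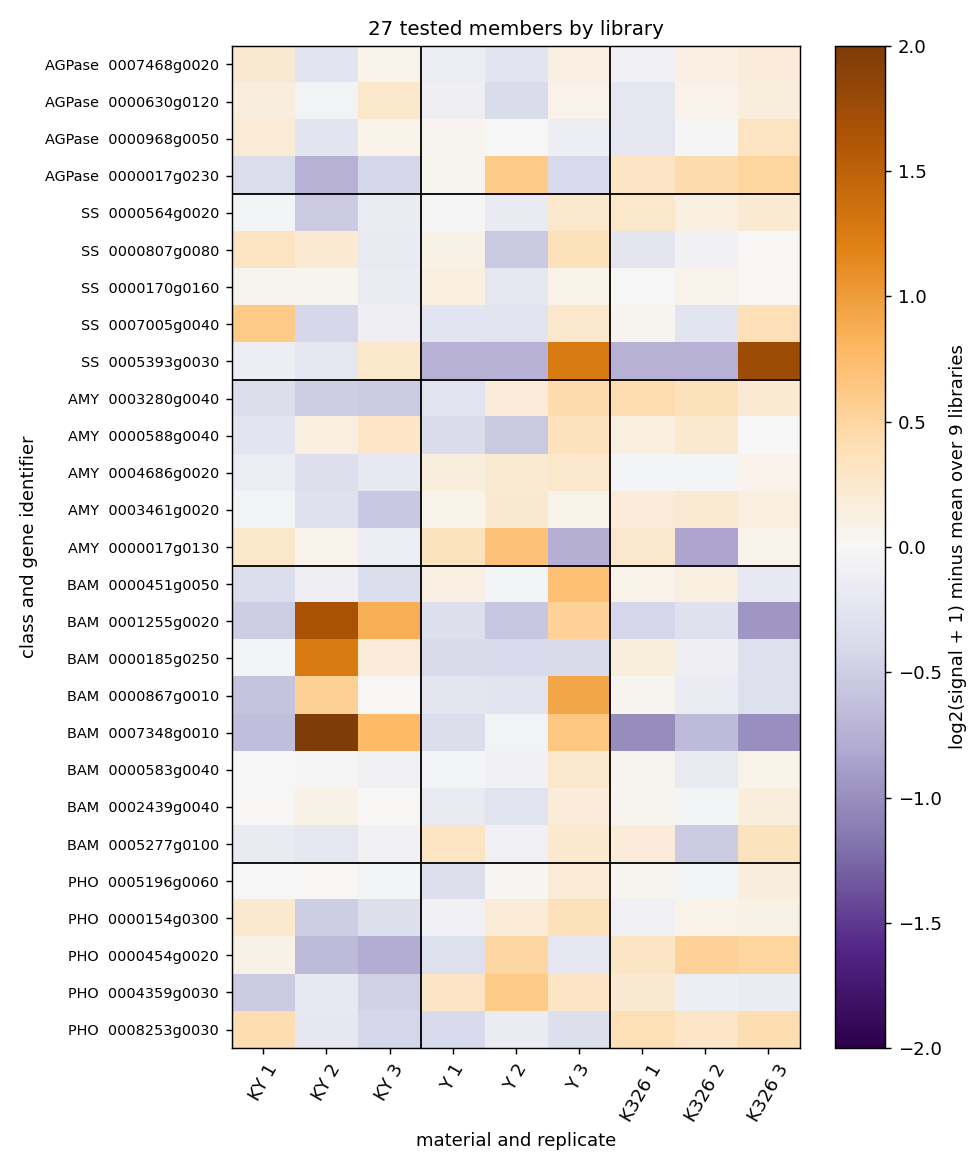
Log2(signal + 1) of each of the 27 tested genes (rows, by class and the last part of the identifier) minus its mean over the 9 libraries (columns, KY, Y and K326 with replicate number); AGPase is ADP-glucose pyrophosphorylase, SS starch synthase, AMY an alpha-amylase entry, BAM beta-amylase and PHO phosphorylase. Colours saturate at 2 log2 units. The 5 deepest colours are those of beta-amylases Nitab4.5_0007348g0010, Nitab4.5_0001255g0020 and Nitab4.5_0000185g0250 in KY replicate 2 and of starch synthase Nitab4.5_0005393g0030 in K326 replicate 3 and Y replicate 3.

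Branching enzymes set the branch pattern of amylopectin. Branching-enzyme gene Nitab4.5_0004686g0020 had 10.8, 9.36 and 10.4 in KY, 13.6, 14 and 14.57 in Y, and 11.7, 11.6 and 12.7 in K326. In the values as deposited the 3 materials did not overlap, with KY lowest, K326 between and Y highest, although the distances were small. The difference for KY minus Y was -0.43 (SE 0.13, 95% interval -0.73 to -0.13, unadjusted p = 0.00988, limma adjusted p = 0.203). For KY minus K326 it was -0.21 (SE 0.13, limma adjusted p = 0.566) and for Y minus K326 0.22 (SE 0.13, limma adjusted p = 0.547). Branching-enzyme gene Nitab4.5_0000588g0040 had 13.6, 18.3 and 20.4 in KY, 12.57, 11.04 and 21.43 in Y, and 18.2, 19.8 and 16.5 in K326, with no separation. The third such gene, Nitab4.5_0003541g0040, was listed at 0 in all 9 libraries. A further gene with the all-beta domain but no branching entry, Nitab4.5_0000017g0130, averaged 1.89 in KY, 2.16 in Y and 1.55 in K326.

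The plant-type alpha-amylase Nitab4.5_0003280g0040 was the only tested gene with the beta-sheet entry. It had 57.2, 50.8 and 50.4 in KY, 60.1, 82.4 and 98.8 in Y, and 98.6, 94.4 and 83.9 in K326. Every KY library lay below every Y and every K326 library, and Y overlapped K326. Means were 52.8 ± 3.80 in KY, 80.4 ± 19.4 in Y and 92.3 ± 7.56 in K326 (SD, n = 3 each). The difference was -0.79 for KY minus K326 (SE 0.19, 95% interval -1.22 to -0.37, unadjusted p = 0.00234, limma adjusted p = 0.14) and -0.57 for KY minus Y (SE 0.19, unadjusted p = 0.0144, limma adjusted p = 0.234). It stayed short of the threshold under all 18 alternatives of each comparison, with adjusted p from 0.0633 to 0.448 for KY minus K326 and from 0.146 to 0.484 for KY minus Y. The 0.0633 was reached without KY replicate 1 (difference -0.85, SE 0.21). That library, at 57.2, was the highest of KY but lay below all Y and K326 libraries. The other 7 genes with this entry reached a mean over the 9 libraries of at most 0.546 each.

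The tested inhibitor-domain gene, Nitab4.5_0003461g0020, is described with a proteasome maturation factor domain as well and is among these genes by wording alone. It had 4.78, 3.89 and 3.07 in KY, 5.36, 5.98 and 5.34 in Y, and 5.76, 5.95 and 5.56 in K326. KY was below both other materials in every library, with limma adjusted p = 0.328 against K326 and 0.303 against Y. Without KY replicate 1 the limma adjusted p was 0.0709 against K326 and 0.137 against Y.

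**Figure D3:**
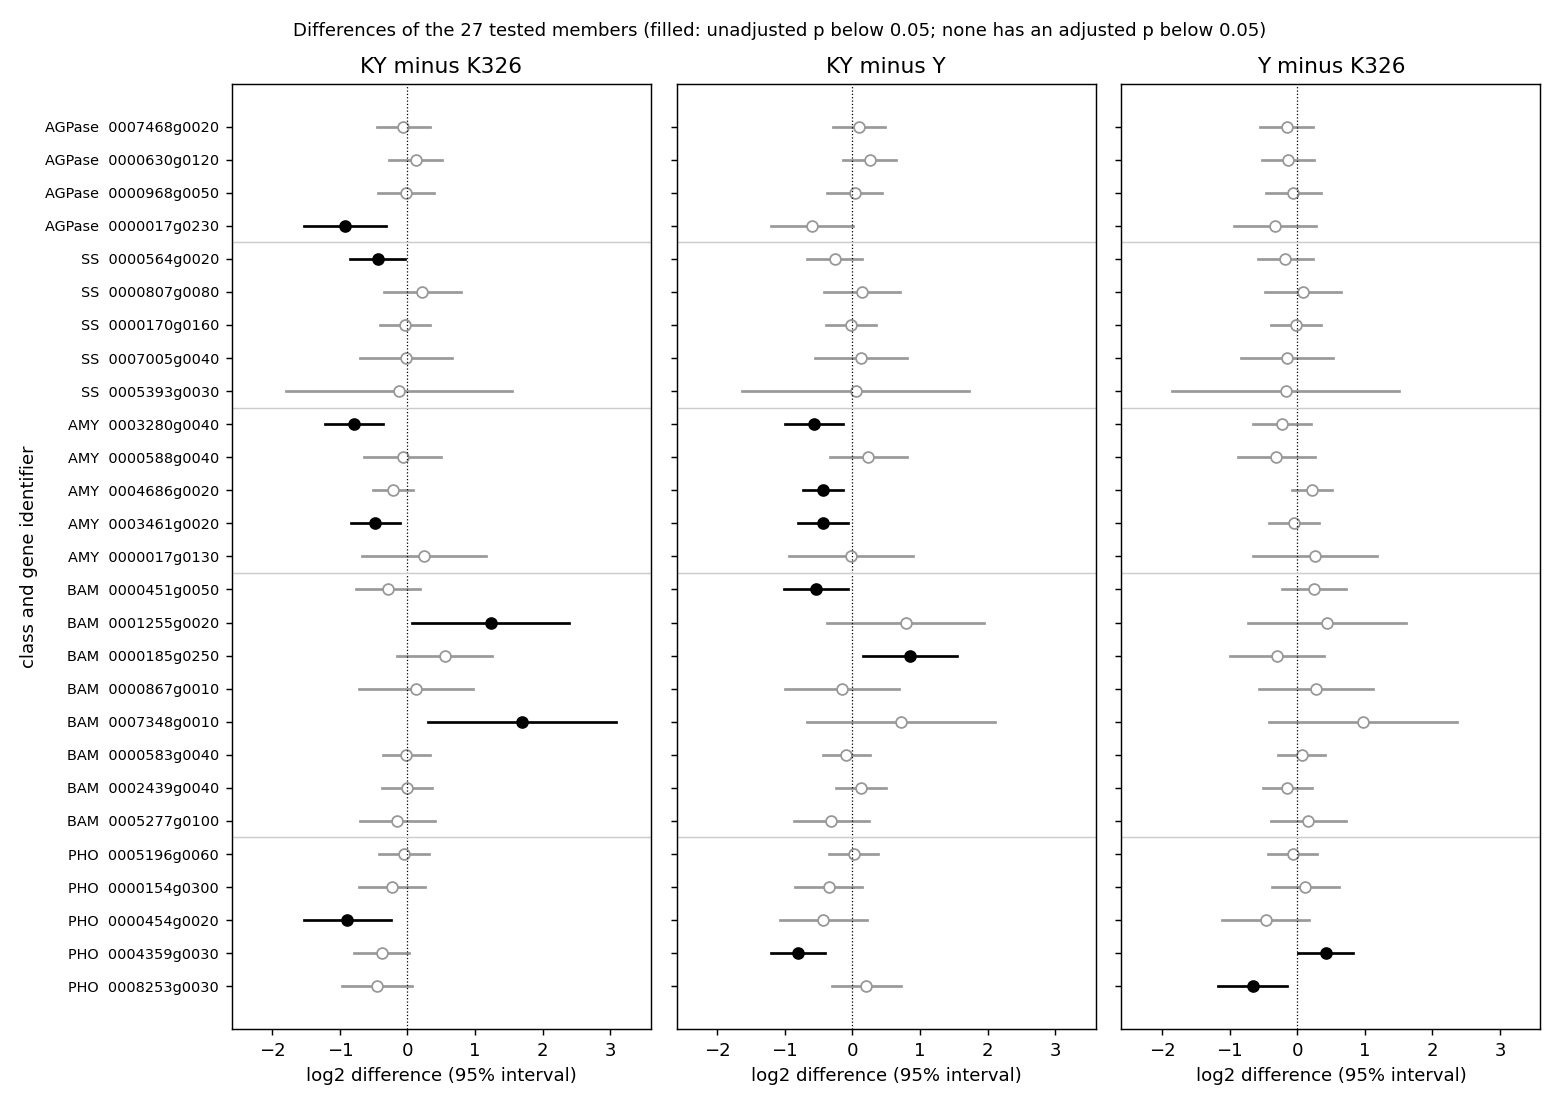
Log2 differences of the 27 tested genes (x axis, point and 95% interval from limma) for KY minus K326, KY minus Y and Y minus K326, with genes in rows by class (abbreviations as in the heat map); filled points have an unadjusted p below 0.05. No gene reached an adjusted p below 0.05, and the 2 beta-amylase points furthest right, 1.23 and 1.69 for KY minus K326, have the widest intervals after starch synthase Nitab4.5_0005393g0030.

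The 2 genes with the widest spread between the KY libraries, as the highest library over the lowest, were beta-amylases, while 4 other tested beta-amylases had at most 1.21 times. Nitab4.5_0007348g0010, of the plant subfamily 14B, had 3.35, 31.5 and 10.6 in KY, 4.37, 5.47 and 9.56 in Y, and 2.34, 3.25 and 2.41 in K326. All KY and all Y libraries were above all K326 libraries, but KY replicate 1, at 3.35, was barely so, and within KY the highest library was 9.41 times the lowest. Nitab4.5_0001255g0020, of family 14, had 26.7, 124.2 and 71.2 in KY, 30.7, 25.6 and 56.6 in Y, and 28.2, 31.3 and 19.6 in K326. KY replicates 2 and 3 were above all other libraries, whereas KY replicate 1 lay within the K326 range. Within KY its highest library was 4.65 times the lowest, and in K326 1.59 times. Nitab4.5_0000185g0250, again subfamily 14B, had 18.0, 45.7 and 21.2 in KY, 14.04, 13.84 and 14.02 in Y, and 20.8, 17.2 and 14.8 in K326. All KY libraries were above all Y libraries, and KY replicate 2 was far above the rest.

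With all 9 libraries these differences did not pass. Nitab4.5_0007348g0010 differed by 1.69 for KY minus K326 (SE 0.61, unadjusted p = 0.0221, limma adjusted p = 0.351). Nitab4.5_0001255g0020 differed by 1.23 (SE 0.51, unadjusted p = 0.0406, limma adjusted p = 0.415). Nitab4.5_0000185g0250 differed by 0.85 for KY minus Y (SE 0.31, unadjusted p = 0.0223, limma adjusted p = 0.279).

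Without KY replicate 1, 3 of the 27 genes passed for KY minus K326, 2 above and 1 below 0, where the called share over all tested genes was 4.05% (0.642% above and 3.41% below 0). The 2 beta-amylase genes were then higher in KY, by 2.41 for Nitab4.5_0007348g0010 (SE 0.44, limma adjusted p = 0.0331) and by 1.82 for Nitab4.5_0001255g0020 (SE 0.38, limma adjusted p = 0.0434). The gene lower in KY was the phosphorylase Nitab4.5_0000454g0020, described below. Over the 18 alternatives, the adjusted p ran from 0.0331 to 0.697 for the first and from 0.0434 to 0.807 for the second, and the omission of KY replicate 1 was the only alternative in which either passed. Without KY replicate 2, the highest library of both genes, the differences were smaller, at 0.96 for Nitab4.5_0007348g0010 (SE 0.43, limma adjusted p = 0.551) and 0.73 for Nitab4.5_0001255g0020 (SE 0.46, limma adjusted p = 0.69). Without that library Nitab4.5_0000185g0250 differed by 0.46 for KY minus Y (SE 0.18, limma adjusted p = 0.323). For KY minus Y without KY replicate 1, none of the 27 genes passed, beside 1.85% of all tested genes (0.587% above and 1.26% below 0). There Nitab4.5_0007348g0010 differed by 1.44 (limma adjusted p = 0.17), Nitab4.5_0001255g0020 by 1.38 (limma adjusted p = 0.133) and Nitab4.5_0000185g0250 by 1.10 (limma adjusted p = 0.127). The summed dividing-cell signal separated the same KY libraries, at 3283 in replicate 1 and 1337 and 1441 in replicates 2 and 3. Its part in the beta-amylase values was not tested.

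**Figure D4:**
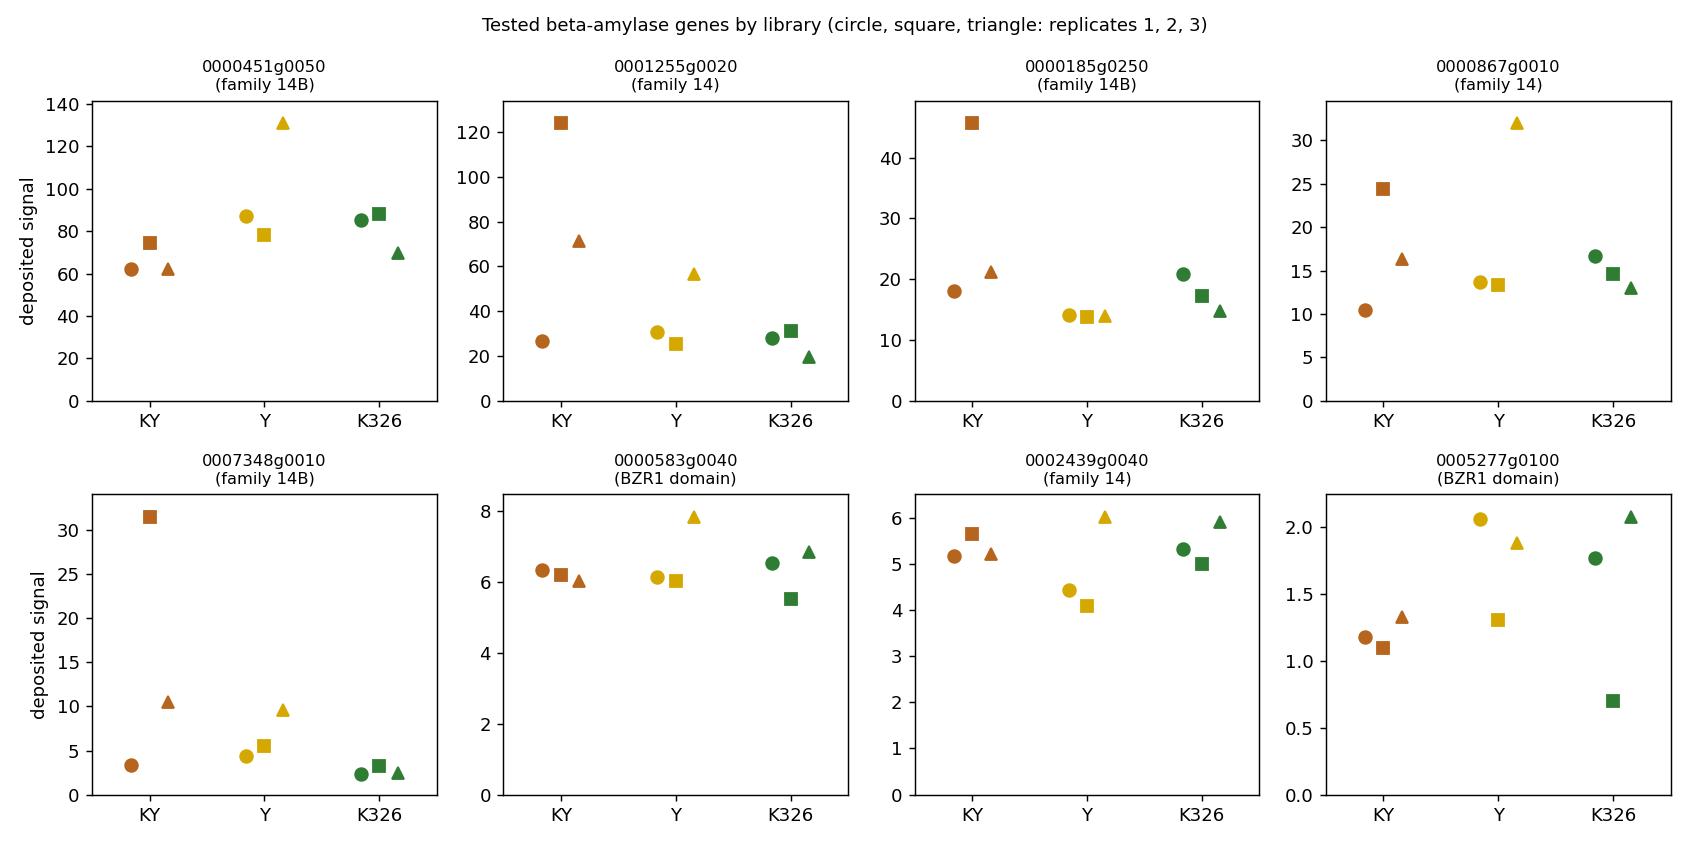
Deposited signal (y axis, from 0, a separate scale per gene) of the 8 tested beta-amylase genes in each library of KY, Y and K326 (x axis); the symbols mark replicates 1, 2 and 3. In Nitab4.5_0001255g0020, Nitab4.5_0000185g0250 and Nitab4.5_0007348g0010 KY replicate 2 is the highest library, at 124.2, 45.7 and 31.5, and KY replicate 1 sits near the K326 libraries.

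The beta-amylase with the largest signal had its lowest mean in KY. Nitab4.5_0000451g0050, of subfamily 14B, had 62.3, 74.4 and 62.2 in KY, 87.2, 78.1 and 131.1 in Y, and 85.2, 88.0 and 69.8 in K326. In the values as deposited, KY lay below Y in every library and overlapped K326. The difference for KY minus Y was -0.54 (SE 0.21, unadjusted p = 0.0303, limma adjusted p = 0.318). Without Y replicate 3 it was -0.32 (limma adjusted p = 0.457). Nitab4.5_0000867g0010 had 10.5, 24.3 and 16.3 in KY, 13.64, 13.36 and 32.02 in Y, and 16.65, 14.59 and 13.02 in K326. KY replicate 2 and Y replicate 3 were the highest, and no material separated.

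A pair of the tested beta-amylases also carry a BZR1-type domain, which in Arabidopsis marks nuclear beta-amylase proteins that act on transcription. Their values overlapped between materials. Nitab4.5_0000583g0040 averaged 6.19 ± 0.16 in KY, 6.68 ± 1.01 in Y and 6.30 ± 0.69 in K326 (SD, n = 3 each), and Nitab4.5_0005277g0100 averaged 1.20 ± 0.12 in KY, 1.75 ± 0.39 in Y and 1.52 ± 0.72 in K326. Nitab4.5_0002439g0040, without that domain, averaged 5.34 ± 0.26 in KY, 4.85 ± 1.03 in Y and 5.41 ± 0.47 in K326. By subgroup, the family 14 genes summed to 96.6 ± 56.0 in KY, 62.5 ± 28.3 in Y and 47.3 ± 6.85 in K326, the subfamily 14B genes to 111 ± 36.6 in KY, 120 ± 30.8 in Y and 102 ± 12.6 in K326, and the BZR1-domain genes to 7.43 ± 0.16 in KY, 8.43 ± 1.21 in Y and 7.84 ± 1.43 in K326.

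Phosphorylases, which split glucan chains with phosphate, gave separate patterns in separate genes. Nitab4.5_0000454g0020 had 14.2, 7.95 and 7.31 in KY, 10.4, 18.9 and 11.1 in Y, and 16.5, 19.6 and 19.2 in K326. KY was below K326 in every library, with KY replicate 1 the closest, and the difference was -0.89 with all libraries (SE 0.28, limma adjusted p = 0.288) and -1.17 without KY replicate 1 (SE 0.25, limma adjusted p = 0.0451). That omission was the only 1 of 18 alternatives in which it passed, with adjusted p up to 0.697. Nitab4.5_0004359g0030 had 2.84, 3.82 and 3.02 in KY, 5.86, 7.49 and 5.80 in Y, and 5.49, 4.10 and 3.97 in K326. In the values as deposited the 3 materials did not overlap, with KY lowest and Y highest. Its difference for KY minus Y was -0.80 (SE 0.18, 95% interval -1.21 to -0.40), with an unadjusted p = 0.00151 and a limma adjusted p = 0.0823, the lowest of the 27 genes in any comparison. Across the 17 alternatives that tested it, the adjusted p for KY minus Y stayed between 0.0789 and 0.266. For Y minus K326 it differed by 0.42 (SE 0.18, limma adjusted p = 0.375).

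Nitab4.5_0008253g0030, a phosphorylase gene of small signal, had 2.70, 1.40 and 1.06 in KY, 1.12, 1.51 and 1.24 in Y, and 2.67, 2.42 and 2.73 in K326. Y lay below K326 in every library (difference -0.66, SE 0.23, unadjusted p = 0.0178, limma adjusted p = 0.272), and KY replicate 1 lay within the K326 range while KY replicates 2 and 3 lay below it. For KY minus K326 the difference was -0.45 with all libraries (SE 0.23, limma adjusted p = 0.492). Without KY replicate 1 it was -0.70 (SE 0.18, limma adjusted p = 0.0707). The phosphorylases with the largest means overlapped between materials. Nitab4.5_0005196g0060 had 16.9, 17.1 and 16.6 in KY, 13.5, 17.4 and 19.7 in Y, and 17.6, 16.3 and 18.9 in K326. Nitab4.5_0000154g0300 had 19.5, 11.2 and 12.9 in KY, 15.2, 18.8 and 21.3 in Y, and 15.3, 17.4 and 17.4 in K326.

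Y replicate 3 held the highest value of the 9 libraries for 10 of the 27 genes, against 15.7% of all tested genes, and the summed signal of all 84 genes was 923 in it, 728 and 714 in the other Y libraries, 781 to 824 in KY and 766 to 839 in K326. Within Y the highest library was at least 2 times the lowest for 6 of the 26 genes above 0 in every Y library, beside 23.8% of the 15686 tested genes above 0 in every Y library. Counted in the same way, this held in KY for 8 of 27 (34.2% of 15751) and in K326 for 2 of 26 (19.6% of 15858). The median of the highest library over the lowest was 1.5 in KY, 1.48 in Y and 1.25 in K326 for these genes. Over the tested genes above 0 in every library of the material it was 1.65 in KY, 1.5 in Y and 1.43 in K326.

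Genes that neighbour the pathway and match none of the wordings above were counted as 9 lists with 116 genes, of which 43 were tested. They cover glycoside hydrolase family 77 (the disproportionating enzyme family), glucan water dikinase type genes, phosphohexomutases, phosphoglucose isomerase, triose phosphate translocators, inorganic pyrophosphatase, sucrose synthase, glycoside hydrolase family 31 and hydrolases with any family 13 wording. These lists rest on wording and are not pure. Of the 25 genes with family 13 wording, 9 carry the family 13 enzyme entry (2 of 6 tested), while 12 are of family 27 or its clan and 4 of family 38, which share only the all-beta domain entry. Among the 9, Nitab4.5_0004987g0060 and Nitab4.5_0007723g0030 are described as pullulanase-type alpha-1,6-glucosidases, and neither was tested. Of the 16 sucrose synthase genes, 2 are described as sucrose-phosphate synthase (1 of 2 tested). Of the 17 phosphohexomutases, 2 are described as phosphoacetylglucosamine mutase (1 of 9 tested), and of the 4 dikinase type genes, 2 carry a carbohydrate binding module (0 of 2 tested). No gene was called in Y minus K326 or KY minus Y, and 1 was called in KY minus K326 (background 0.789%). It was the translocator Nitab4.5_0000006g0100, of a family that carries triose phosphates or phosphoenolpyruvate across the chloroplast envelope, with 0.27, 0.13 and 0.29 in KY, 0.36, 0.42 and 0.61 in Y, and 1.53, 2.02 and 3.56 in K326. KY was lower than K326 by 1.41 (SE 0.24, limma adjusted p = 0.0404). The call was kept in 3 of the 16 alternatives that tested the gene (adjusted p from 0.0261 to 0.148) and lost, for example, without any 1 Y library. The gene's mean over the 9 libraries was 1.021. It met the minimum of 1 only through K326, with means of 2.37 in K326, 0.46 in Y and 0.23 in KY, so its entry into the test depended on the group where it is high. For Y minus K326 the difference was -1.16 (SE 0.24, limma adjusted p = 0.0513). A translocator gene with far more signal, Nitab4.5_0003315g0040, had 315.2, 467.1 and 416.9 in KY, 360.6, 318.2 and 428.2 in Y, and 351.7, 321.9 and 360.2 in K326.

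The family 77 gene Nitab4.5_0000471g0040 had 1.80, 0.82 and 0 in KY, 5.22, 6.30 and 2.61 in Y, and 0.19, 1.15 and 0.01 in K326. Y was above both other materials in every library, with a difference of 2.00 for Y minus K326 (limma adjusted p = 0.0705) and -1.67 for KY minus Y (limma adjusted p = 0.142). Neither passed, and Y minus K326 passed in 4 of 17 alternatives (adjusted p from 0.0287 to 0.265). This gene met the minimum mean of 1 only through Y, with means of 4.71 in Y, 0.87 in KY and 0.45 in K326. Inorganic pyrophosphatase removes the pyrophosphate that ADP-glucose synthesis releases. The 16 genes with this wording, which gives no cell compartment, summed to 693 ± 46.3 in KY, 688 ± 35.6 in Y and 683 ± 40.9 in K326. None of the 10 tested was called.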

How the data were processed

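Leaf RNA libraries of KY, Y and K326 (3 each) were made with a TruSeq RNA kit from TRIzol-extracted RNA, per the labels' protocols. The submitters' processing notes list HISAT2, StringTie and RSEM. The role of each tool, the genome build and the counting were not given in the sources used here. Expression signal in the deposited table has no unit, per the file headers. Steps of low values differed by 1 to 1.37 times between libraries, which sets no depth. None of 79372 RefSeq genes (assembly ASM71507v2) shared an identifier with the table, so no symbols, coordinates or sequences are given.

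Values were transformed as log2(signal + 1). The 16348 genes whose mean signal reached 1 entered 1 limma 3.58.1 model in R 4.3.3 with a mean per material and a mean-variance trend. Calls used a Benjamini-Hochberg adjusted p below 0.05. A run of the procedure on simulated data used large known changes and no library that deviated across genes. It therefore does not bear on small differences or on KY replicate 1. The count test foreseen if counts were given was not used. Genes named are the 2 with the largest mean per class, those with an unadjusted p below 0.05 and groups that do not overlap, and called list genes; the other tested genes appear with group means, and those shown for contrast, such as Nitab4.5_0005393g0030, Nitab4.5_0000867g0010, Nitab4.5_0003315g0040 and Nitab4.5_0000471g0040, were chosen after their values were seen. The genes and lists were chosen with earlier results of these data known, and the list with family 13 wording was added after the descriptions were read.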

Additional observations from a re-analysis of the deposited data

How the results depend on the processing

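The count of 0 called genes among the 27 held under every alternative for Y minus K326 and KY minus Y, and for KY minus K326 under all but the omission of KY replicate 1, which gave 3, so that leaving out 1 library gave 0 to 3. The alternatives were median-of-ratios scaling, quantile normalization, pseudocounts of 0.1 and 5, no filter or a minimum mean of 5, a fit of the 2 materials alone, no variance trend, a replicate block, and each library left out. Scaling mattered for small differences. Its size factors were 0.878 to 1.065 in KY, 0.953 to 1.047 in Y and 1.068 to 1.163 in K326. Divided by them, KY and K326 overlapped in Nitab4.5_0004686g0020, in Nitab4.5_0004359g0030 and in the phosphorylase sum. KY and Y then overlapped in beta-amylase Nitab4.5_0000451g0050. These separations hold only as deposited. Counts of groups that do not overlap were also taken on the values as deposited. The median over all genes for KY minus K326 was -0.14 as deposited and 0.02 after median-of-ratios scaling, and for Y minus K326 it was -0.08 and 0.02. Nitab4.5_0007468g0020, at -0.06 for KY minus K326, was at 0.15 (reversed) after that scaling, at 0.075 without KY replicate 2, and from -0.16 to 0.075 over the omission of each library. The summed alpha-amylase ratio of KY to K326 (log2), which includes the inhibitor-domain and branching-enzyme genes, was -0.58 as deposited and -0.36 after scaling. That of phosphorylase was -0.37 and -0.18. Of these shifts, those under scaling come from the size factors by construction, and the cause of the other was not tested. Same-numbered libraries did not deviate together (correlations from -0.166 to 0.177, and not every library correlated best with its own number), so the numbers were not taken as pairs. With the replicate block the called genes were 0 of 27 in each comparison, and over all genes 85 for KY minus K326, 134 for KY minus Y and 211 for Y minus K326, against 129, 212 and 325 without it. The translocator call was lost under the block (adjusted p = 0.0798). A minimum mean of 5 gave 60 called genes for KY minus K326, 127 for KY minus Y and 156 for Y minus K326, and a fit of KY and Y alone gave 134. KY minus K326 gave 662 called genes without KY replicate 1 and 76 to 80 without KY replicate 3 or any K326 replicate, KY minus Y gave 114 without Y replicate 1 and 126 without KY replicate 3, and Y minus K326 gave 181 to 201 without Y replicate 1 or 2 or any K326 replicate. Read depth is unknown, so no value near 0 shows absence.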
